A study of Mus musculus with 18 samples.

Results

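Myod1, Myf5, Myf6, Myog, Hand1, Hand2, Tbx5 and Mef2c encode transcription factors that direct skeletal muscle and heart formation, and their histone methylation was described here in mouse embryonic stem cells. The 8 genes were taken by name from 21620 protein-coding genes on chromosomes 1 to 19 and X. Each was measured within 1 kb of its transcription start, over its body from end to end, and in the 10 kb on either side of the body (the flanks). The cells were E14 mouse embryonic stem cells, an established line grown with LIF and inhibitors of MEK and GSK3 (2i), in medium carrying light, medium or heavy arginine and lysine. Chromatin immunoprecipitation with sequencing (ChIP-seq) was run on 18 libraries in 9 groups of 2.

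Untreated cells gave 2 libraries for each of 5 marks, the mono-, di- and trimethylated forms of histone H3 lysine 27 (H3K27me1, H3K27me2, H3K27me3) and the di- and trimethylated forms of lysine 36 (H3K36me2, H3K36me3). A further 8 libraries were quantitative: chromatin of Drosophila S2 cells, 0.05% of the total, was mixed in as a reference, and H3K27me3 and H3K36me2 were measured after 7 days with DMSO or with 10 µM EPZ6438, an inhibitor of EZH2. Depth is given as the sum of the reads recovered in non-overlapping 1 kb windows, in M (mega). This sum need not equal the number of reads sequenced, since a read can count in adjacent windows. Untreated libraries had sums of 22.9 to 67.5 M. Of the quantitative libraries, H3K27me3 with DMSO had 21.6 and 27.9 M, H3K27me3 with the inhibitor 0.992 and 1.78 M, and H3K36me2 between 50.5 and 111.8 M. The labels number 2 replicates per group but do not say that they came from separate cultures, so p-values measure only the spread between these libraries. With 2 libraries against 2, an exact permutation test cannot give a p below 0.333, so tests come from models fitted across all genes.

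Myod1, Myf5, Myf6 and Myog are basic helix-loop-helix (bHLH) factors that bind E-box DNA and switch on the skeletal muscle program. Myf5 and Myod1 act early in committing cells, and Myog and Myf6 act later in differentiation. Hand1 and Hand2 are bHLH factors of the heart and other embryonic tissues, Tbx5 is a T-box factor of the heart and forelimb, and Mef2c is a MADS-box factor that works with both groups. As background, H3K27me3 is laid down by Polycomb repressive complex 2, whose catalytic subunit is EZH2 or EZH1, and it covers many silent developmental regulators in embryonic stem cells. H3K36me2 is broad over genes and between them, and H3K36me3 follows transcription along gene bodies.

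The marks were read relative to the mean of each library over all 1 kb windows, so a level of 1 is the genome-wide average. Levels per window were compared between genes within a mark and not between marks, since antibodies differ. The pluripotency gene Pou5f1 had H3K36me3 over its body at 7.50 ± 0.464 times the library mean. Its start had H3K27me3 at 0.0430 ± 0.00541 (SD, n = 2). Not all embryonic stem cell genes read this way. Esrrb had H3K27me3 of 6.24 at its outermost listed start, and Dppa5a had body H3K36me3 of 1.17. Over bodies, the median H3K36me3 was 5.88 for 10 embryonic stem cell genes, 6.12 for 5 housekeeping genes, 1.76 for all genes and 1.34 for the 8 regulators. The housekeeping genes included Hprt, whose body read 0.197.

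Promoter sequence from the RefSeq table for GRCm38.p6 covered Myf5, Myog, Hand2 and Mef2c, and these 4 had starts from that table. For Myod1, Myf6, Hand1 and Tbx5 the start is the end of the annotated gene (GRCm38) that lies first on the strand known for the gene; the gene table gives no strand. For Tbx5 this is the outermost annotated end, and starts inside the gene were not used. The 250 bases upstream of 5 starts are shown because they differ widely in CpG content, a feature of the promoters that Polycomb complexes bind. They are written 5′ to 3′ along the gene, with each CG in capitals.
Hand2 (chr8:57320733-57320982, plus strand): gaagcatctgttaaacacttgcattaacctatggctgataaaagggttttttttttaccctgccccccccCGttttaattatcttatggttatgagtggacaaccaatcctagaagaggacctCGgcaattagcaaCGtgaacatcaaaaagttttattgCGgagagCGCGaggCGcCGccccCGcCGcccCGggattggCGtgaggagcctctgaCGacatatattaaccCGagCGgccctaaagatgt
Myog (chr1:134289754-134290003, plus strand): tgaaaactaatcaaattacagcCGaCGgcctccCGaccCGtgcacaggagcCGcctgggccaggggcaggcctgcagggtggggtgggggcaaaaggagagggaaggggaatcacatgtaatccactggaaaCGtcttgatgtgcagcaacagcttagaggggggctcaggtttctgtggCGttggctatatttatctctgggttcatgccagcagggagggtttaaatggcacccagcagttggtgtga
Myf5 (chr10:107486135-107486384, minus strand): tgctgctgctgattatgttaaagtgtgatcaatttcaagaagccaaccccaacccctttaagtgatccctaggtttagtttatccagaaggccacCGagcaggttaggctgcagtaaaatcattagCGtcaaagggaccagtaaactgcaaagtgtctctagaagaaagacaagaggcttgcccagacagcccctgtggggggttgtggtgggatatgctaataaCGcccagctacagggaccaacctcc
Mef2c, first start (chr13:83503784-83504033, plus strand): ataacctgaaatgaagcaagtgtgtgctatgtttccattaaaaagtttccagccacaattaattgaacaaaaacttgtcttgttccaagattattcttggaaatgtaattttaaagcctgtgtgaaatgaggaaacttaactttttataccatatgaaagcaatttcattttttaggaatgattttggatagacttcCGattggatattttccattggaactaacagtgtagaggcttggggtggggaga
Mef2c, second start (chr13:83523406-83523655, plus strand): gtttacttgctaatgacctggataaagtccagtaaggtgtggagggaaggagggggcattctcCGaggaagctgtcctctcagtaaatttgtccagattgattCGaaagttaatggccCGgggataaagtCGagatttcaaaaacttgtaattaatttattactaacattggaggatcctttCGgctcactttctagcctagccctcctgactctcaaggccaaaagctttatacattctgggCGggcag

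The Hand2 stretch held 15 CG, Myog 7, the second Mef2c start 6, Myf5 3 and the first Mef2c start 1. Over 21045 starts of protein-coding genes the median was 10. Across quartiles of the CG count, low to high, untreated H3K27me3 at the start had medians of 0.563, 1.14, 0.274 and 0.266 times the library mean. The share of genes above 3 times the mean was 14.3%, 31.4%, 21.2% and 21.8%. H3K27me3 thus did not rise steadily with the CG count, and a relation was not tested. The E-box letters CANNTG, which read the same on both strands, occurred 2 times each in Hand2, Myog and the first Mef2c stretch and 0 times in Myf5. They occurred in 62.8% of all such stretches. TATAAA, searched on both strands, was found once in each Mef2c stretch shown and in 11.7% of all. A match is a string of letters, not a measured binding site.

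In untreated cells 7 of the 8 genes carried H3K27me3 far above the genome average at their starts. Mef2c, read at the first of its 3 annotated starts, stood lowest. The 4 highest were Myod1 and the heart regulators Tbx5, Hand2 and Hand1, each at 10.0 times the library mean or more. Myf5, Myf6 and Myog followed at 4.36 to 7.26. Set among 17278 genes with a start, the 7 lay between the 84.4th and 99.6th percentile and Mef2c at the 68.6th. The median was 8.65 for the 8 genes and 0.466 for all.

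Myod1 (chr7:46376474-46379092) had the highest start, at 15.8 and 15.2 times the library mean in the 2 libraries. Tbx5 (chr5:119796514-119885220) followed with 11.3 and 11.8. Hand2 (chr8:57320983-57324517) read 9.92 and 10.2. Hand1 (chr11:57828713-57832147) read 10.4 and 9.70, so the 2 Hand genes overlapped and could not be ordered. Myf5 (chr10:107482908-107486927) had 6.98 and 7.55. Its neighbour Myf6 (chr10:107492848-107494723), 5921 bp away, had 5.53 and 5.76. The libraries disagreed most for Myog (chr1:134290004-134292548), at 5.26 and 3.47, both below the Myf6 values. Mef2c (chr13:83504017-83667079) read 1.57 and 1.64 at the first of 3 annotated starts. Apart from the Hand pair, the ranges of neighbours in this order did not overlap. The order rests on the starts as placed: at the opposite gene end Hand1 read 13.3, Myod1 9.28, Tbx5 2.99 and Myf6 2.50 on average. At its second start Mef2c read 4.39 and 4.73, between the values of Myog.

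**Figure D1:**
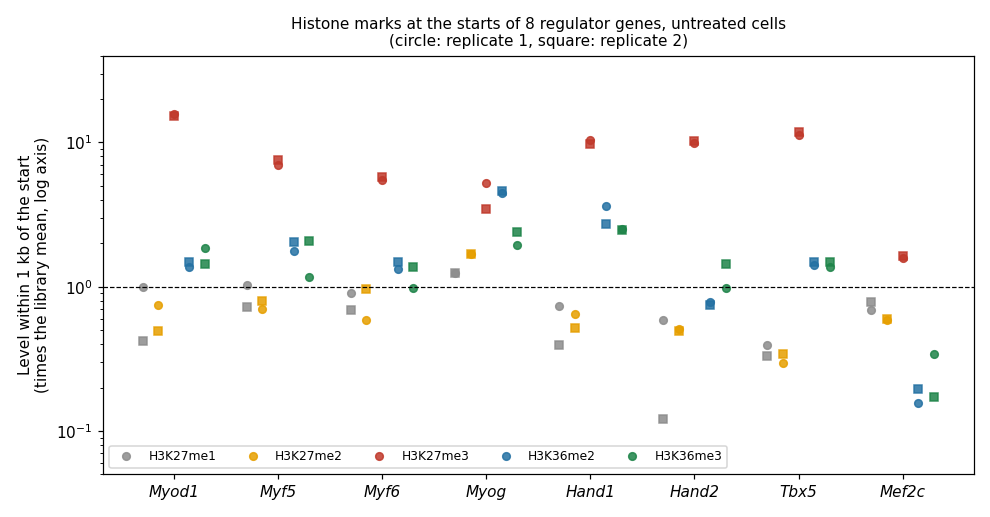
Levels of 5 histone marks within 1 kb of the start of each gene in untreated cells, as times the library mean on a log axis; each point is 1 library and the dashed line is the genome average. H3K27me3 spans 1.57 at Mef2c to 15.8 at Myod1, and H3K36me2 is highest at Myog, at 4.49 and 4.60.

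The deposited H3K27me3 peaks, made from these untreated libraries and so no independent measure, placed the same loci in wide domains. A peak covered at least 500 bp of the start window at 7 of the 8 genes, against 32.8% of all genes. The exception was Mef2c at its first start, while 1 of its peaks (chr13:83515001-83526500) spans its second. Tbx5 lay in the widest of these, a 136 kb peak (chr5:119762501-119898500) that spanned the whole gene. Peaks of 47.5 kb at Hand2, 37.5 kb at Myod1, 34 kb at Hand1 and 20 kb at Myog also reached beyond the genes, where the median peak of the list is 7000 bp wide. Myf5 and Myf6 shared a single 13.5 kb peak (chr10:107484001-107497500). Mef2c overlapped 4 separate peaks of 4 to 12.5 kb, which covered 20.9% of its body, and the widest of them ran past the end of the gene. By the authors' score, whose scale is not given in the sources used here, the Tbx5 peak stood at the 99.8th percentile of the list and the 4 Mef2c peaks between the 19.3rd and the 73rd.

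Within each locus, H3K27me3 was higher at the start than in the flanks for 6 of 8 genes, where 30.1% of 17060 genes passed in that direction (limma on log2 levels, Benjamini-Hochberg adjusted p under 0.05). The rise was steepest at Myf5 (log2 difference 2.09, SE 0.19, adjusted p = 0.00173) and Myod1 (1.60, SE 0.19, adjusted p = 0.00297). Myf6, Tbx5, Mef2c and Hand1 also passed, with differences of 1.39, 1.18, 1.04 and 0.90. Hand2 did not (0.50, adjusted p = 0.0712), with flanks that were themselves at 7.08 ± 0.307 times the library mean, but it passed with a window of 2 kb either side of the start (0.53, adjusted p = 0.0258). Myog did not pass either (0.36, adjusted p = 0.218). The 10 kb flanks of Myf5 and Myf6 overlap, so these 2 results share windows. Taken at the opposite gene end, for the 4 genes placed by known strand, Myf6 lost the call (0.24, adjusted p = 0.316) and Tbx5 turned to -0.73 (adjusted p = 0.0255). For Hand1, flanks of 5 kb ended the call (0.45, adjusted p = 0.106), and for Mef2c the window of 2 kb either side of the start did (0.38, adjusted p = 0.0852).

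The position of the maximum differed between genes. Windows are named by the distance of their first base from the start. Myod1 and Myf5 peaked in the window at the start itself, at 16.6 ± 1.65 and 7.66 ± 0.963. Tbx5 peaked 6 kb inside the gene at 15.0 ± 0.377, and Hand1 just past its 3′ end, 4 kb from the start, at 14.5 ± 0.895. Hand2 was highest 2 kb into the gene, at 11.5 ± 0.610. Around Myog the highest window lay 8 kb downstream at 10.4 ± 1.65, inside the annotated extent of the adjacent gene Ppfia4, whereas the Myog body had a median window of 1.24. The window 8 kb past the Myf6 start, at 8.26 ± 1.04, lies at the Myf5 start.

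**Figure D2:**
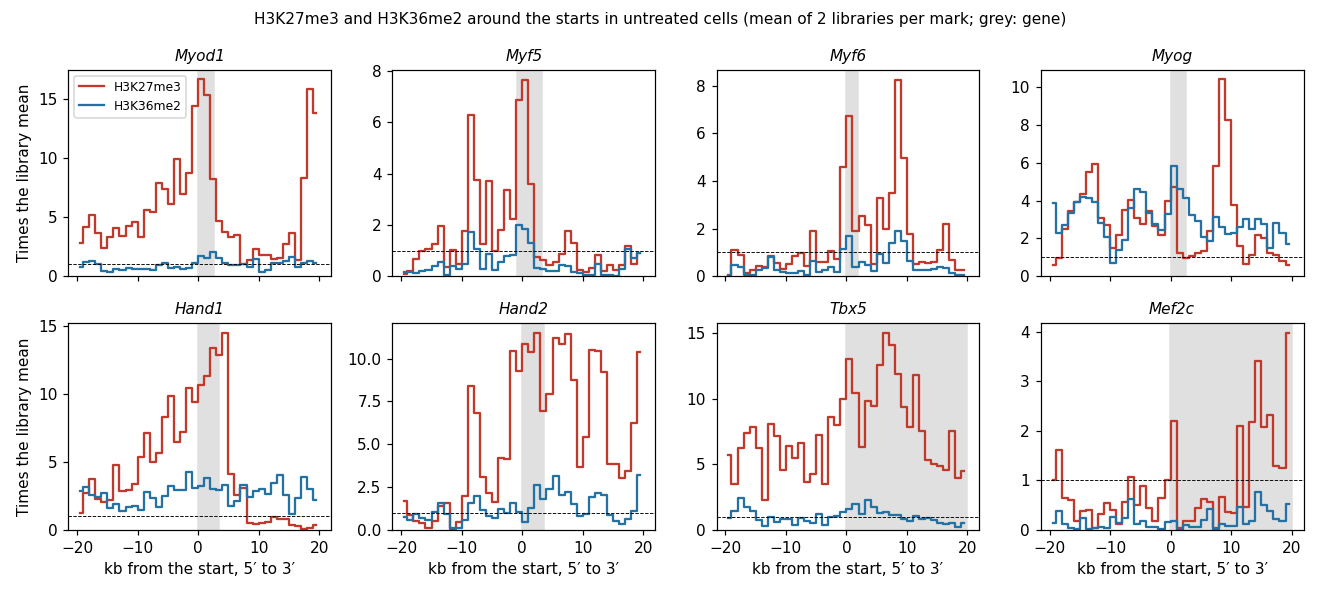
H3K27me3 and H3K36me2 in 1 kb windows from 20 kb before to 20 kb after the start in untreated cells, as times the library mean (mean of 2 libraries per mark), with the gene in grey and the dashed line at the genome average. H3K27me3 tops at the start for Myod1 and Myf5, 6 kb into Tbx5 and 8 kb beyond the Myog start.

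Mef2c, the longest of the 8, showed H3K27me3 in patches. Its first 10 kb averaged 0.531 ± 0.0848 times the library mean, the stretch from 10 to 25 kb 1.97 ± 0.0747, and the 3 stretches from 25 to 100 kb between 0.690 and 0.717. The highest window, 20 kb from the first start, reached 5.32 ± 0.237 and lies next to the second annotated start at 19622 bp. Measured within 1 kb, that second start read 4.39 and 4.73, the first start 1.57 and 1.64, and the third start 0.863 and 0.844. The 3 starts of Mef2c therefore differed by more than the spread between libraries. Tbx5 was covered along its whole length: its 9 consecutive stretches of about 10 kb ranged from 4.44 to 11.2, with the first 10 kb highest.

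**Figure D3:**
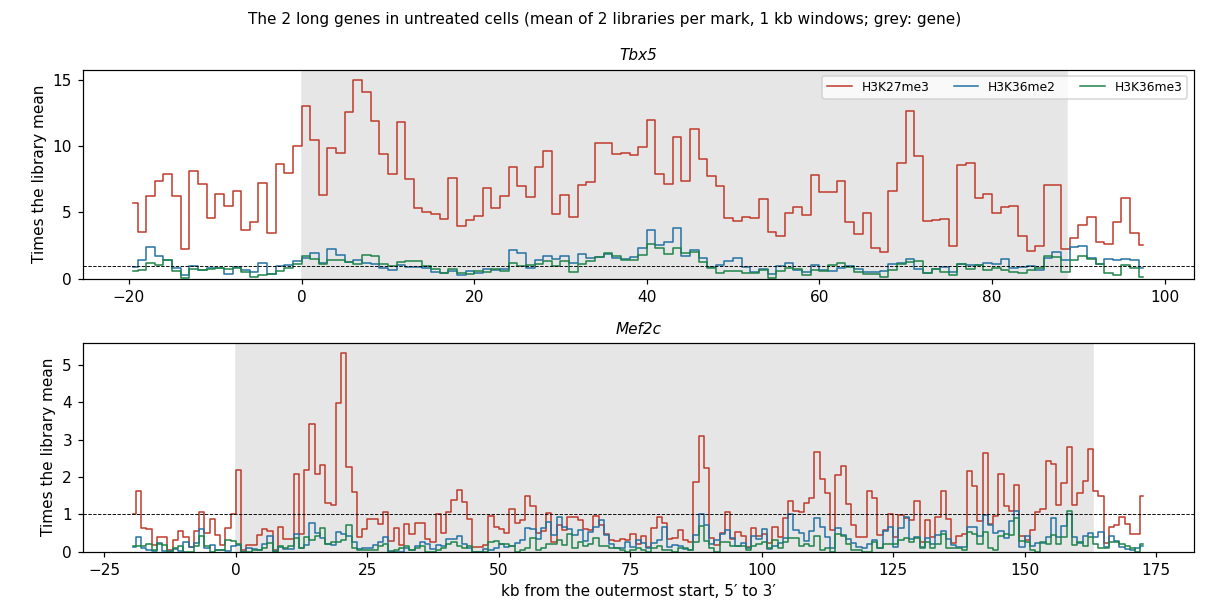
H3K27me3, H3K36me2 and H3K36me3 along Tbx5 and Mef2c in untreated cells, in 1 kb windows from the outermost start (times the library mean, mean of 2 libraries; grey marks the gene). Tbx5 carries H3K27me3 throughout, and Mef2c shows its tallest window, at 5.32, 20 kb from the start.

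In H3K36me2, Myog and Hand1 had the highest starts of the 8. At its start Myog had H3K36me2 of 4.49 and 4.60 times the library mean, at the 99.2nd percentile of all genes. Hand1 read 3.65 and 2.72, at the 93.3rd percentile. Tbx5, Myod1, Myf6 and Myf5 lay between 1.41 and 1.91 on average, Hand2 at 0.763 ± 0.0247 and Mef2c at 0.175 ± 0.0272, where the median of all genes was 1.25. Deposited H3K36me2 peaks covered the starts of 3 of the 8 genes, Myog, Hand1 and Tbx5, where 53.6% of all genes had one. The Hand1 peak was 225 kb wide and the Myog peak 87 kb, so both genes combined broad H3K36me2 with an H3K27me3 peak.

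Myog was also the gene with most H3K27me2 and H3K27me1. Its body carried H3K27me2 at 2.98 ± 0.752 times the library mean, at the 98.7th percentile, where the other 7 bodies had 0.356 to 0.892. Its start had 1.69 and 1.68 times the mean for H3K27me2 and 1.25 and 1.24 for H3K27me1. It was the 1 gene of the 8 with its start in an H3K27me2 peak (33.9% of all genes) and the 1 with its start in an H3K27me1 peak (29.5% of all genes). The remaining 7 starts had 0.320 to 0.779 for H3K27me2 and 0.354 to 0.876 for H3K27me1.

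Against the flanks, the lower methylation states of lysine 27 split by gene. H3K27me2 was lower at the start than in the flanks for Tbx5 (log2 difference -1.56, adjusted p = 5.49e-05), Hand1 (-0.92) and Myod1 (-0.83), 3 of 8 against 44.9% of all genes (limma). It was higher at Myf6 (0.63) and Myf5 (0.53), 2 of 8 against 11.7%, though neither passed with a window of 2 kb either side of the start (adjusted p = 0.341 and 0.126). H3K27me1 was lower for Tbx5 (-0.98, adjusted p = 0.0302), 1 of 8 against 21.5%, and higher for 0 of 8 against 2.17%. At the opposite gene end Tbx5 and Myod1 lost the H3K27me2 call (-0.39, adjusted p = 0.0910, and -0.20, adjusted p = 0.330), as did Myf6 (0.20, adjusted p = 0.329), and Tbx5 lost the H3K27me1 call (-0.56, adjusted p = 0.171). These results hold for the starts as placed by known strand.

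H3K36me2 was higher at the start than in the flanks for 4 of 8 genes against 20.5% of all genes: Myf5 (log2 difference 1.82, adjusted p = 2.19e-04), Myf6 (1.14), Myog (0.72) and Myod1 (0.64). It was lower for 1, Hand2 (-0.93, adjusted p = 0.00174), against 34.6%. With a window of 2 kb on either side of the start all 8 genes passed in one direction or the other, among them Mef2c at -0.67. With that window 4516 of 17021 genes passed as higher and 5407 as lower, so passing was common. At the opposite gene end Myf6 lost the call (0.15, adjusted p = 0.441). The window over the Hand2 start held H3K36me2 at 0.468 times the library mean and H3K27me3 at 10.9, and the lncRNA gene Hand2os1 lies 124 bp away.

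Over bodies, H3K36me3 lay above the median of all genes for Hand1 and Myog and below it for the other members. Hand1 had the most, 3.01 ± 0.0694 times the library mean, and Mef2c the least, 0.198 ± 0.0220. Between them lay Myog at 1.92, Hand2 at 1.60, Myod1 at 1.53, Myf6 at 1.15, Myf5 at 1.14 and Tbx5 at 1.02. At the starts, every member but Mef2c lay above the all-gene median of 1.05. Hand1 was highest there at 2.48 (91.4th percentile), followed by Myog at 2.18 (88.1st percentile). Relative to the flanks, body H3K36me3 was higher for 5 genes (Myf5, Myf6, Myod1, Hand1 and Tbx5, with log2 differences of 0.39 to 1.58) against 45.8% of all genes. It was lower for 1, Myog (-0.72, adjusted p = 0.00544), against 22.2%. Without flank windows that lie in other genes the Myog difference turned to 0.13. At the starts, H3K36me3 was higher than in the flanks for the same 5 genes, against 13.2%, and lower for 0 of 8, against 41.7%. Myog, at -0.55 (adjusted p = 0.0606), was called lower with a window of 2 kb either side of the start (-0.94, adjusted p = 0.00246) and with an offset of 0.5 in place of 0.1 (-0.48, adjusted p = 0.0212). Flanks of 5 kb ended the call of Tbx5 for the body (adjusted p = 0.551) and those of Hand1 and Tbx5 for the start (adjusted p = 0.194 and 0.0684). At the opposite gene end the start calls of Tbx5 (0.29, adjusted p = 0.347) and Myf6 (-0.08, adjusted p = 0.833) were lost.

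Genes from lists of related factors ranged widely in H3K27me3 at their starts, and differences between lists were not tested. The median was 8.59 for the 8 measured of 17 muscle precursor regulators, from Six4 at 0.157 ± 0.222 to Pax7, a satellite cell regulator, at 12.3 ± 0.385. For the 10 protein-coding heart regulators measured, of 17 genes listed, it was 6.21, from Smyd1 at 0.180 ± 0.143 to Tbx1, a pharyngeal and outflow tract factor, at 17.2 ± 0.372. A list of bHLH and MADS-box partners, inhibitors and relatives, here called partners (11 of 13 measured), had a median of 1.39. It ran from Tcf3, which encodes an E-protein partner of the muscle bHLH factors, at 0.0196 ± 0.0277 to Twist2 at 17.2 ± 0.193. The 20 genes for muscle structure had a median of 3.11, from the troponin gene Tnnt1 at 0.494 ± 0.30 to the actin gene Acta1 at 12.6 ± 1.41. Start above flank passed for 7 of 8 precursor regulators, 8 of 10 heart regulators, 3 of 11 partners and 11 of 20 structural genes, beside the 30.1% over all genes. Start below flank passed for 0, 0, 4 and 1 of them in turn, beside 37.5% over all genes. The 8 embryonic stem cell genes with a measured start had a median of 0.102 and 4 housekeeping genes 0.0861. Hprt, among these 4, read 0 for H3K27me3 and 0.0367 or less in the other marks at its start, so it lacked signal in every mark.

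Likeness was measured as the root mean square distance of log2 levels over 10 values, 5 marks at the start and 5 over the body, among the 17278 genes. Myf5 and Myf6 were closest among the 8, at 0.269, and Mef2c lay 1.58 to 2.46 from the others. The nearest gene to Hand1 was Pdx1 at 0.123, the closest match found for any of the 8. Nkx3-2 and Lhx1 were nearest to Hand2, at 0.220 and 0.231, and Krt25 to Myf6 at 0.161. Rbm24 was nearest to Tbx5 at 0.246 and Hao1 to Mef2c at 0.184. All levels come from the same 10 libraries, so library errors are shared.

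With the EZH2 inhibitor, H3K27me3 fell at every member that could be tested, as it did across the genome. On the authors' scale, taken here to be scaled to the Drosophila reads, the genome-wide mean went from 42.2 ± 9.17 with DMSO to 0.0790 ± 0.0172 with the inhibitor (SD, n = 2), a 534-fold lower value. At the starts, 6 of 6 tested members were called lower by limma, where 100.0% of 9580 tested genes were, so the count says nothing particular about the 8. Myf6 and Mef2c were not tested because 1 inhibitor library had 0 reads there. With a filter of at least 10 reads in each DMSO library instead, 8 of 8 starts were called lower, as were all 8728 genes tested. Over bodies 7 of 7 were called lower, against 100.0% (18354 of 18356).

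By the ratio of means, Myod1, Tbx5 and Hand2 fell less than Hand1, Myog and Myf5 among the 6 tested starts. Myod1 read 1085 and 804 scaled reads per window with DMSO and 5.93 and 4.95 with the inhibitor, a 174-fold lower mean. Tbx5 went from 657 and 580 to 3.87 and 2.77, a 186-fold lower mean. Hand2 went from 755 and 472 to 2.90 and 1.68, 267-fold lower. All 3 ratios lie below the 534 of the genome-wide mean.

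Hand1, which began near Hand2, read 559 and 467 with DMSO and 0.484 and 0.198 with the inhibitor, a 1504-fold lower mean. Myog went from 294 and 182 to 0.242 and 0.198, 1082-fold lower. Myf5 went from 401 and 261 to 0.605 and 0.248, 777-fold lower. Their inhibitor values rest on 8, 6 and 10 window reads in all, against 149 for Myod1, 88 for Tbx5 and 58 for Hand2. The large folds are therefore imprecise and do not order Hand1, Myog and Myf5. Intervals and limits on such reads would cover counting error only.

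Myf6 had 368 and 206 scaled reads with DMSO, and its inhibitor libraries held 4 reads and 0 reads. Mef2c had 68.3 and 43.8, and its inhibitor libraries 2 and 0 reads. No fold is given for these 2 genes, since a count of 0 allows up to 3 reads. At all 8 starts both inhibitor libraries lay below both DMSO libraries, as at 100.0% of the 9580 genes tested. On the log2(scaled reads + 1) scale of the test, which understates the fall of low genes, the 6 tested starts changed by -8.58 (Hand1) to -7.17 (Tbx5), with SE of 0.33 to 0.38 and adjusted p of 3.95e-08 to 5.84e-08. The median over all tested genes was -5.67. Body changes ran from -8.60 (Hand1) to -5.07 (Mef2c), with a median of -4.90 over all genes.

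**Figure D4:**
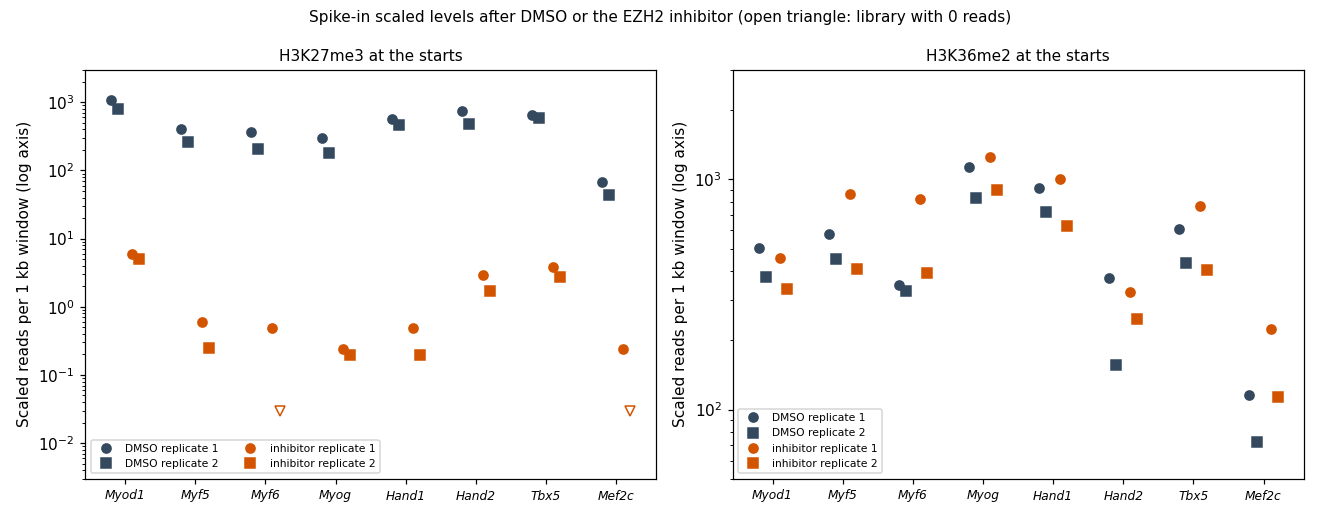
Scaled reads per 1 kb window at the starts after 7 days with DMSO or the EZH2 inhibitor, on log axes; each point is 1 library, and open triangles mark libraries with 0 reads. H3K27me3 (left) falls to 0.198 to 5.93 or to 0 at the 8 genes, while the H3K36me2 values (right) of the arms overlap at every gene but Myf6.

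Within the small inhibitor libraries, the remaining H3K27me3 reads were concentrated at some of these genes. Relative to the library mean, the Myod1 start rose from 22.3 and 22.5 with DMSO to 65.1 and 74.1 with the inhibitor. Tbx5 went from 13.5 and 16.2 to 42.5 and 41.5, and Hand2 from 15.5 and 13.2 to 31.9 and 25.2. At these 3 genes the lower inhibitor value exceeded the higher DMSO value, as for 54.0% of the genes tested. Those are the genes with a read in every library, a filter that favours genes keeping reads with the inhibitor. The reverse, found for 24.0% of the genes tested, held at Hand1 (11.5 and 13.1 to 5.31 and 2.96), Myog (6.04 and 5.10 to 2.66 and 2.96), and Myf5 (8.24 and 7.32 to 6.64 and 3.70). Myf6, outside that filter, went from 7.57 and 5.76 to 5.31 and 0, and Mef2c from 1.40 and 1.23 to 2.66 and 0, on 4 and 2 inhibitor reads in all.

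Tested on library totals in place of the authors' scale, Myod1 (log2 difference 1.63, SE 0.46, adjusted p = 0.0294) and Tbx5 (1.50, SE 0.47, adjusted p = 0.0395) were called higher by limma. That is 2 of 6 against 38.0% of genes, so a higher share is common among the genes tested. Hand1 was called lower (-1.62, SE 0.52, adjusted p = 0.0431), 1 of 6 against 4.91%. Hand2 (0.98, adjusted p = 0.137), Myog (-0.98, adjusted p = 0.135) and Myf5 (-0.64, adjusted p = 0.344) did not pass. On the authors' scale all 6 genes fell, so at Myod1 and Tbx5 the amount was lower and the share of the remaining signal higher. Over bodies, Myod1 alone passed on library totals (1.21, adjusted p = 0.00952), 1 of 7 against 42.6% called higher, and 0 of 7 were called lower against 9.53%. The inhibitor libraries are far shallower than the DMSO libraries, and the part of depth in these shares was not tested.

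The remaining reads sat in narrow places. In Tbx5 the highest window was 7 kb inside the gene, with 45 and 101 reads, or 119 and 150 times the library mean, against 22.8 and 17.9 with DMSO. Its first 10 kb averaged 40.3 ± 3.23 times the mean, and the next 10 kb 3.45 ± 0.367. The corresponding untreated stretches were at 11.2 and 6.29, so the remaining mark was more uneven along Tbx5 than the mark of untreated cells. Stretches with DMSO, the matched arm, are not given here. The highest Tbx5 window was 20.4 ± 3.46 with DMSO and 15.0 ± 0.377 untreated, so the arms without inhibitor differed as well. At Myod1 the window at the start held 30 and 61 reads (79.7 and 90.4 times the mean), and at Hand2 13 and 22 reads (34.5 and 32.6 times).

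Hand1 kept reads away from its start. Its highest window began 3 kb from the start, at the 3′ end of the gene, with 9 and 19 reads, or 23.9 and 28.2 times the library mean, where the DMSO libraries had 17.8 and 16.6. Around Myf5 the highest window was at the start, with 3 and 3 reads. Around Myog it lay 17 kb upstream with 4 and 5 reads, and the 3 highest windows of Mef2c held 1 or 2 reads in each library. These windows were picked for their values, so they are a description.

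**Figure D5:**
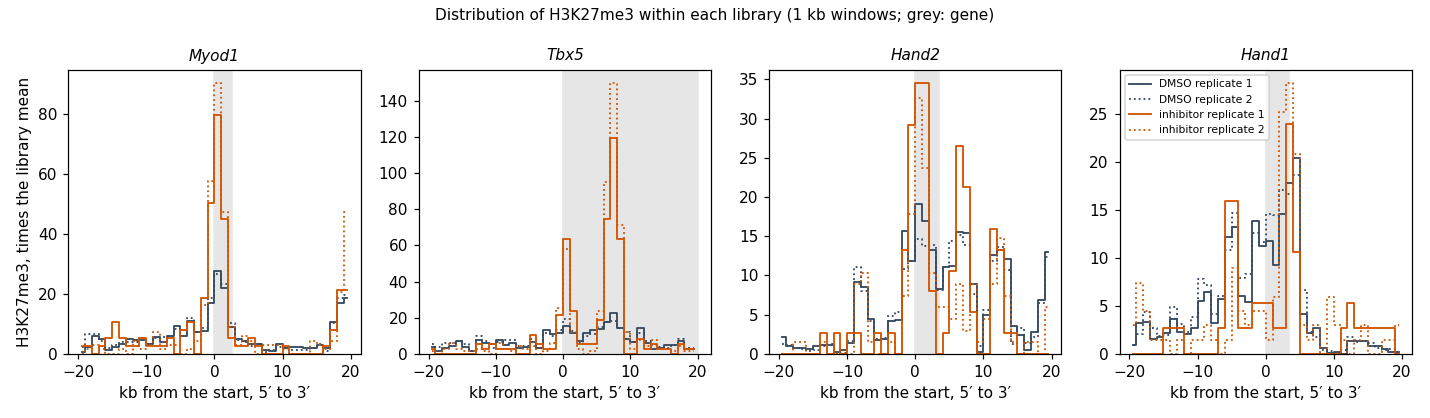
H3K27me3 in 1 kb windows around 4 starts after DMSO or the EZH2 inhibitor, each library relative to its own mean; lines are single libraries and grey marks the gene. Inhibitor reads gather at the Myod1 start (79.7 and 90.4), 7 kb into Tbx5 (119 and 150), at the Hand2 start (34.5 and 32.6) and 3 kb from the Hand1 start (23.9 and 28.2).

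The change in contrast between start and flanks was not established for any gene. limma called 0 of 8 members and 0.0% of 16472 genes, although 3659 genes had an unadjusted p under 0.05. On simulated data of the same depth the test recovered 0 of 40 genes changed 64-fold, so a count of 0 carries no information. The largest positive estimates were Tbx5 at 2.23 (SE 0.49, adjusted p = 0.147), Myod1 at 1.46 (adjusted p = 0.205) and Hand2 at 1.32 (adjusted p = 0.234), and at these genes and Myf5 (0.39) the inhibitor arm lay above without overlap, as for 29.6% of genes. At Hand1 (-0.83) and Myog (-0.37) it lay below without overlap, as for 26.9% of genes. Hand1 turned to 0.81 at the opposite gene end, and Myog to 0.049 with a window of 2 kb either side of the start. Leaving out the first inhibitor library gave 6 members and 8238 genes called, and leaving out the second gave 4 members and 9636 genes, with the lone library assumed to vary like the others.

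In the test without pairing, H3K36me2 did not change detectably at the 8 genes after the inhibitor. limma called 0 of 8 starts, where 0.0481% of 16646 genes passed (7 higher and 1 lower, 410 at an unadjusted p under 0.05), and 0 of 8 bodies, where 0.124% of 21005 passed (26 higher, 475 unadjusted). With voom weights on the recovered reads, 0 genes passed in either region. Log2 differences at the starts ran from -0.16 (Myod1) to 0.79 (Mef2c), each with an SE of 0.55, and over bodies from 0.02 (Myod1) to 0.80 (Mef2c), each with an SE of 0.50. Within a region the SE was the same for all 8 genes, so it is a spread shared across genes and not that of each gene. With the replicate number as a block, a pairing no label gives, limma called 2278 of 21005 bodies, Myf6 and Mef2c among them. The genome-wide mean was 268 ± 77.9 with DMSO and 315 ± 126 with the inhibitor. By library it was 323 and 213 with DMSO and 404 and 227 with the inhibitor, replicate 1 first. This difference between libraries, shared by all genes, enters the SE of the test without pairing.

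Mef2c and Myf6 had the largest differences. The Mef2c body read 117 and 88.9 scaled reads per window with DMSO and 247 and 128 with the inhibitor. Its arms did not overlap, nor did those of the Myf6 body (log2 difference 0.68), as for 7.53% of genes in that direction. The Myf6 start read 349 and 328 with DMSO and 824 and 394 with the inhibitor, also without overlap, as for 7.17% of genes. None of these passed the limma test (adjusted p = 0.99999 for each). Unadjusted p was 0.110 for the Mef2c body, 0.175 for the Myf6 body and 0.176 for the Myf6 start. Relative to the library mean, the Mef2c body went from 0.390 ± 0.0388 to 0.589 ± 0.0327 and its flanks from 0.221 ± 0.00499 to 0.393 ± 0.00625, the lowest level of the 8. On library totals the Mef2c body differed by 0.59 (SE 0.12, unadjusted p = 0.00819, adjusted p = 0.288), where limma called 0.0% of genes higher.

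Where H3K36me2 was already high it stayed high. The Myog start read 1137 and 828 with DMSO and 1257 and 901 with the inhibitor, and the Hand1 start 919 and 722 against 1005 and 626. In both genes the arms overlapped. Apart from Myf6, the remaining starts overlapped as well. Tbx5 read 606 and 433 against 767 and 405, and Myf5 581 and 450 against 862 and 410. Hand2 read 374 and 156 against 324 and 248, and Myod1 505 and 378 against 457 and 335. Mef2c at its first start read 116 and 72.2 against 224 and 113.

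The start-to-flank contrast of H3K36me2 passed for 0 of 8 members and for 0.0% of 17091 genes, with 1420 genes at an unadjusted p under 0.05. On simulated data this test recovered 97 of 100 genes changed 4-fold. Smaller changes were not simulated, so recovery at the sizes estimated here is unknown. Myod1 had the largest estimate, -0.64 (SE 0.18, unadjusted p = 0.00666, adjusted p = 0.421), followed by Myf5 at -0.52 (adjusted p = 0.483). At 5 of 8 genes, Myod1, Myf5, Hand1, Tbx5 and Mef2c, the inhibitor libraries lay below the DMSO libraries, as for 24.7% of genes. The other 6 estimates lay between -0.17 and 0.05. The flanks of Myod1 went from 1.27 ± 0.0265 to 1.59 ± 0.192 times the library mean, and those of Myf5 from 0.458 ± 0.00778 to 0.708 ± 0.0742.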

How the data were processed

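The deposited tracks hold log2 values in 1 kb windows every 500 bp. Every value equals log2(1 + whole reads times 1 factor per library) within a tolerance of 0.05, so reads were recovered for 100.0% of windows. In untreated libraries the factor brings every library to nearly the same mean, as a scaling to library size does; in quantitative ones it was taken as the authors' spike-in factor, whose derivation is not given in the sources used here. Peaks carry a deposited score of unstated scale, and peaks are the authors' replicated ones from untreated cells. Per the submitters' processing notes, Trim Galore 0.4.2, Bowtie2 2.2.6.2, SICER, mm10 and dm3 were used. Groups come from the labels. Starts, bodies and flanks follow RefSeq GRCm38.p6. For every gene the start used was the outermost one listed. Only 17278 genes with a start, from its promoter table or, for 4 members, from known strand, could enter tests at starts, a departure from the planned use of all protein-coding genes.

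limma 3.58.1 (R 4.3.3) was fitted across all genes on log2(scaled reads + 1) for inhibitor against DMSO, requiring at least 1 read in every library, and on log2(level + 0.1) for start or body against flank. Benjamini-Hochberg adjustment was over all genes within each of 12 comparisons, at 0.05. Tests were run on simulated data first. The members and lists were chosen with earlier results of these data known. Named list genes are the lowest and highest by H3K27me3 at the start, and windows and likenesses were picked by value. Alternatives covered library totals, median centring, pseudocounts of 0.1 and 4, filters, voom, the replicate number as a block, each library left out, window and flank sizes, peak overlap and score, and, chosen after seeing the data, the opposite end of the 4 genes with no start in the promoter table. Levels were also set against the library median and against the DMSO libraries. The lncRNA Hand2os1 was left out of the heart list's medians after seeing that its start window is that of Hand2. With it, the median over 11 starts was 7.61 for H3K27me3 and 1.02 for H3K36me2. The replicate numbers were not taken as pairs. No input library was used here.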

Additional observations from a re-analysis of the deposited data

How the results depend on the processing

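Of the values recomputed under the alternatives, 948 single values were counted as unchanged, 87 moved and 66 changed sign. A test value counted as unchanged if it kept its sign and its side of the threshold, whatever its size. An untreated level did so if it moved by less than the SD between its libraries, and a peak count if it stayed within 1.5 times. Among values that kept their sign, 20 gained a call and 22 lost one. Some that changed sign also gained or lost a call. Most that moved are untreated levels at starts. Against the library median, H3K27me3 ran from 3.75 (Mef2c) to 36.4 (Myod1) and H3K36me2 of Myog was 7.66. In the DMSO libraries Myod1 had H3K27me3 at 22.4 times the mean and Myog H3K36me2 at 3.70. Of the counts of calls, 180 stayed within 1.5 times and 42 did not. The cause of each change below was not tested unless the setting itself gives it.

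Library totals in place of the authors' factor take out the genome-wide fall of H3K27me3. The median over all genes then went from -5.67 to 0.88 at starts and from -4.90 to 0.61 over bodies. Called genes were 4114 at starts (3644 higher and 470 lower, 3 members) and 9562 over bodies (7813 and 1749, 1 member). At starts Myod1, Tbx5 and Hand2 turned to 1.63, 1.50 and 0.98, and over bodies Myod1, Hand2 and Tbx5 to 1.21, 0.47 and 0.14. Centring on the median gave 3982 higher and 4112 lower at starts and 7940 and 8177 over bodies. For H3K36me2, library totals moved the median from 0.03 to -0.17 at starts and from 0.07 to -0.13 over bodies and called 0 genes (2163 and 2971 at an unadjusted p under 0.05). They turned Myog and Tbx5 to -0.070 and -0.084 at starts, and Hand1, Myod1 and Myog to -0.18, -0.19 and -0.13 over bodies. Centring called 0 genes as well (1788 and 2158 unadjusted) and turned Hand1, Myod1 and Myog over bodies to -0.079, -0.083 and -0.029.

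The 8 and 26 genes called for H3K36me2 became 0 in both regions with voom (224 and 338 unadjusted), with no filter (206 and 179) and with at least 10 reads in each DMSO library (135 and 243). They became 2 and 14 with a pseudocount of 4. Bodies without their first 1 kb gave 2, and starts within 2 kb gave 1. With no filter, 15444 genes were called for H3K27me3 at starts.

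The replicate number as a block gave 134 genes for H3K36me2 at starts and 2278 over bodies, with 2 members, Myf6 (adjusted p = 0.00768) and Mef2c (adjusted p = 0.00098). It left the H3K27me3 counts at 9580 and 18354. Over genes, deviations of same-numbered libraries correlated at 0.0229 and 0.106 for H3K27me3, starts and bodies in turn. For H3K36me2 they correlated at 0.139 and 0.470. These correlations leave out an offset shared by all genes. Replicate 1 had the higher genome-wide scaled mean in every arm. For H3K27me3 it was 48.7 against 35.7 with DMSO and 0.0911 against 0.0668 with the inhibitor. For H3K36me2 it was 323 against 213 and 404 against 227. With 2 pairs and no label of a shared day, the numbers were not taken as pairs.

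With each quantitative library left out in turn, the H3K27me3 contrast of start against flank called 0 to 9636 genes and 0 to 6 members, and Myf6 ranged from -4.89 to 0.53 and Mef2c from -2.44 to 1.34. H3K36me2 called 0 (without the second DMSO library) to 45 genes (without the second inhibitor library) at starts and 3 to 111 over bodies, for the same libraries. At starts Myod1 ranged from -0.38 to 0.065, Myf5 from -0.32 to 0.75, Myog from -0.11 to 0.37, Hand1 from -0.38 to 0.30, Hand2 from -0.40 to 0.86 and Tbx5 from -0.34 to 0.58. Over bodies Myod1 ranged from -0.28 to 0.32, Myf5 from -0.12 to 0.83, Myog from -0.30 to 0.44, Hand1 from -0.39 to 0.43 and Hand2 from -0.13 to 0.69. For the H3K36me2 contrast Myf6 ranged from -0.17 to 0.27, Myog from -0.13 to 0.16 and Hand2 from -0.22 to 0.32. In untreated cells a left-out library leaves 1 and no test: Myod1 H3K27me1 ranged from -1.07 to 0.18, Hand2 H3K27me1 from -0.88 to 0.63 and Mef2c H3K27me2 from -0.056 to 0.12.

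Against the flanks, starts taken within 2 kb gave 7072 genes and 2 members for H3K27me1. They gave 3 members for H3K27me2 (2498 genes higher, 7595 lower) and 8 for H3K36me2 (4516 higher, 5407 lower). They turned Hand2 and Mef2c H3K27me1 to 0.0015 and -0.072, Hand2, Mef2c and Myog H3K27me2 to -0.053, -0.31 and 0.23, and Myog H3K27me3 to -0.14. Between arms they turned the Myog H3K27me3 contrast to 0.049, the Hand2 H3K36me2 contrast to -0.11 and Myod1 H3K36me2 to 0.018. Flanks of 5 kb gave 2 members for H3K27me1 and 3 for H3K36me3 at starts, with Myog H3K27me1 at -0.14 and the H3K36me2 contrasts of Myf6 and Myog at -0.095 and -0.0038. Flanks outside other genes turned Myog H3K36me3 to 0.30 at the start and 0.13 over the body, and the Myf6 H3K36me2 contrast to -0.18.

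The opposite end of the 4 genes with no start in the promoter table, chosen after seeing the data, gave 0 members for H3K27me1, 2 for H3K27me2 and 3 for H3K36me3. Tbx5 H3K27me3 turned to -0.73, Myf6 H3K27me1 to -0.44 and Myf6 H3K36me3 to -0.081. Between arms the Hand1 H3K27me3 contrast turned to 0.81, the H3K36me2 contrasts of Hand1 and Myf6 to 0.064 and -0.047, and H3K36me2 of Hand1 and Myod1 to 0.18 and 0.058. With peaks ranked above the list median by score, 0 members remained in H3K27me1 peaks.

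The inhibitor H3K27me3 libraries average 0.377 and 0.675 reads per window, so values at the starts rest on few reads except at Myod1, Tbx5 and Hand2.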

Other observations

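Other genes of the muscle and heart programs varied widely in H3K27me3 at their starts in untreated cells. Among partner factors, Twist2 and Twist1, bHLH factors of mesenchyme, had 17.2 ± 0.193 and 11.2 ± 0.410 times the library mean (SD, n = 2), while Mef2d, a relative of Mef2c, had 0.352 ± 0.165. The paraxial mesoderm regulators Mesp2 and Tbx6 differed, at 10.99 ± 0.233 and 0.947 ± 0.119. In the heart list Gata5, a zinc finger factor, had 15.2 ± 0.581 and Hopx, a small homeodomain protein, 2.90 ± 0.119. Among structural genes, Des, an intermediate filament gene, had 11.3 ± 0.902 and Tnni1, a troponin gene, 0.740 ± 0.118. Esrrb, a pluripotency factor, stood apart from the other stem cell genes at 6.24 ± 0.00171, where Zfp42 had 0.0392 ± 0.0555 and Nanog 0.336 ± 0.254. Esrrb was measured at its outermost listed start only, and its body H3K36me3 was 4.69 ± 0.376. For H3K36me2 at starts, the list medians were 3.07 for muscle structural genes, 2.31 for precursor regulators and 1.67 for 10 protein-coding heart regulators, beside 1.44 for the 8 regulators and 1.25 for all genes. With Hand2os1 kept, the 11 heart starts had a median of 1.02. Partners had 1.39, embryonic stem cell genes 1.23 and housekeeping genes 1.14. The genes named with an SD were the highest and lowest of their lists and carry no test.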
